A study of Mus musculus with 9 samples.

Results

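The 10 genes described here are the FGF receptors Fgfr1, Fgfr2 and Fgfr3, the ligands Fgf10 and Fgf15, and 5 genes that report pathway activity, the ETS transcription factors Etv4 and Etv5 and the inhibitors Spry1, Spry2 and Dusp6. They were taken by symbol from a deposited table of 38195 gene symbols. All 10 were found, and 8 of them reached 1 FPKM in 3 or more of the 9 libraries and were tested. Fgf10 and Etv5 did not reach that level and are given by value only.

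Fibroblast growth factors are secreted proteins that bind receptor tyrosine kinases together with heparan sulfate chains on the cell surface. The activated receptor recruits the adaptor Frs2 and turns on the Ras and MAP kinase cascade, which raises transcription of Etv4 and Etv5 and of the inhibitors that shut the pathway down, the Sprouty proteins and the ERK phosphatase Dusp6. In the developing brain FGF signalling is known for keeping neural progenitors dividing, and in the hypothalamic floor Fgf10 marks the infundibulum and tuberal progenitors.

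RNA came from the hypothalamus of CD-1 mouse embryos, an outbred strain, at stage E12.5. The ventricular zone, which lines the ventricle, and the medial and lateral mantle zones beside it were dissected by hand from coronal vibratome slices, with 3 libraries per zone. No treatment or altered gene is named for any of these samples, although the series title concerns the centrosomal protein Cenpj, so the comparisons are between zones of otherwise like tissue. The labels number the libraries 1 to 3 in each zone and do not say whether they came from separate embryos, litters or pools, so the p-values speak only to the variation among these libraries, which may be partly technical.

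Values are FPKM, fragment counts normalised for transcript length and library size. Differences were tested as log2(FPKM + 1) with limma over all 14004 genes that passed the same filter, with Benjamini-Hochberg adjustment and a threshold of 0.05. These differences understate the change of genes with low values. The size of 1 fragment could be read from the steps between low values, and gave an implied depth of 4420160 to 8817320 fragments in 7 libraries. Ventricular library 3 was 24.7-fold and medial library 3 was 12.0-fold below the median depth, where each fragment on a 2 kb gene stands for 1.91 and 0.927 FPKM. The sum of 11 neural progenitor markers was 1187 to 2387 FPKM in the ventricular zone, 1157 to 1314 in the medial mantle zone and 175 to 213 in the lateral mantle zone, so the libraries labelled medial mantle zone carried progenitor RNA near the level of ventricular library 2 (1187 FPKM) and below ventricular libraries 1 and 3 (2114 and 2387). The sum of 12 neuron markers was 594 to 1668, 1593 to 1876 and 2303 to 2609 FPKM in the same order, with ventricular library 2 at the top of its zone.

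Across the zones, 2 of the 8 tested genes passed the threshold between the lateral mantle zone and both other zones, Fgfr3 and Fgf15. Fgfr1 and Spry2 were higher in the ventricular zone than laterally, with smaller differences that depended on single libraries. Dusp6, Spry1 and Etv4 passed in no comparison. Between the ventricular and lateral mantle zones 4 of 8 passed, all higher in the ventricular zone, beside 19.6% of all tested genes, 10.7% as higher and 8.93% as lower. The median log2 difference was 0.96 over the 8 genes and 0.05 over all tested genes. Between the medial and lateral mantle zones 2 of 8 passed, both higher in the medial zone, beside 4.12% of all tested genes, 3.58% as higher and 0.543% as lower (501 and 76 genes, and 527 and 264 with quantile normalization), with medians of 0.66 and 0.10. Between the ventricular and medial mantle zones limma called 0 of 8, beside 0% of all tested genes, and at an unadjusted p below 0.05 it found 0 of the 8 genes and 1661 of the 14004. The 3 lateral libraries lay below all 3 ventricular libraries for 5 of the 8 genes, beside 25.2% of all tested genes, and below all 3 medial libraries for 5 of the 8, beside 25.7%.

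**Figure D1:**
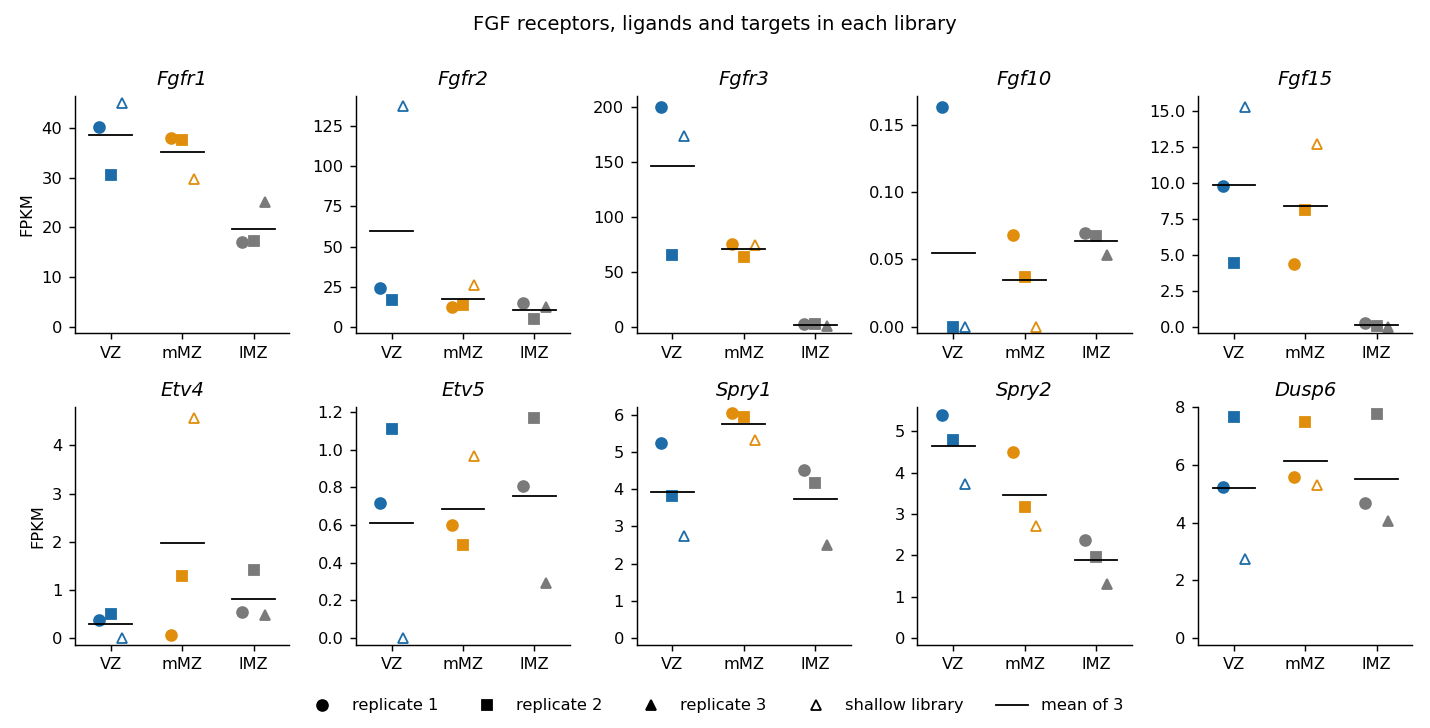
FPKM on linear axes, each gene on its own scale, in each library for the 10 genes, by zone (VZ ventricular, mMZ medial mantle, lMZ lateral mantle; open symbols mark ventricular library 3 and medial library 3, the shallow ones; bars are zone means). Fgfr3 and Fgf15 drop in all 3 lateral libraries, while Dusp6 stays between 2.73 and 7.76 FPKM in all 9.

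Fgf15, the mouse counterpart of human FGF19 and a secreted ligand made by progenitors of the embryonic brain, is on chromosome 7 of GRCm38, 144896532 to 144900953, plus strand. Its level was 9.75, 4.45 and 15.3 FPKM in ventricular libraries 1 to 3 and 4.36, 8.13 and 12.7 FPKM in the medial libraries. In the lateral libraries it was 0.252 and 0.0814 FPKM and listed at 0, which corresponds to about 3, 1 and 0 fragments. Every ventricular and medial library stood above every lateral one, and the ventricular and medial libraries overlapped fully. The log2 difference was 3.15 ± 0.46 (SE) for ventricular over lateral (limma adjusted p = 0.00265) and 2.98 ± 0.46 for medial over lateral (adjusted p = 0.00785). Both calls held in all 20 alternative settings, with adjusted p from 2.09e-05 to 0.0161 and from 8.62e-05 to 0.0436, while the differences rose to 5.57 and 5.39 with a pseudocount of 0.1 and shrank to 1.47 and 1.34 with one of 5. The ventricular and medial zones differed by 0.17 ± 0.46, with a 95% interval from -0.86 to 1.20 (adjusted p = 0.896). In a bulk sample, fewer cells of a type and less RNA per cell cannot be told apart, and this holds for every difference given here. The high values of the shallow libraries rest on few fragments, about 7 in ventricular library 3 and 12 in medial library 3.

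Fgf10, the ligand of the infundibulum, was near the limit of these libraries. It was 0.163 FPKM in ventricular library 1 and listed at 0 in the other ventricular libraries, 0.0682, 0.0366 and 0 in the medial libraries, and 0.0699, 0.0675 and 0.0531 in the lateral libraries. These values correspond to at most 4 fragments in a library. In the shallow libraries a single fragment would have been worth 0.930 and 0.4505 FPKM, above every Fgf10 value of the other libraries. The 11 markers of the infundibulum and ventral midline differed widely in level. Their sum was 227 to 254 FPKM in ventricular, 142 to 266 in medial and 57.2 to 87.3 in lateral libraries, led by Nkx2-1, a factor of much of the ventral hypothalamus, at up to 191 FPKM. Of these markers 9 were tested. Limma called 3 higher in the ventricular than the lateral zone and 1 higher in the medial than the lateral zone, beside 10.7% and 3.58% of all tested genes. Chosen after their values were seen, Rax was 5.36 to 14.3 FPKM in the ventricular and 3.46 to 5.80 FPKM in the medial libraries and listed at 0 in all lateral ones, while Bmp4 and Tbx3 reached at most 0.362 and 1.99 FPKM in any library. Other markers did not follow Rax. Six6 was at most 0.062 FPKM in ventricular, 2.01 to 10.1 in medial and 0.563 to 2.41 in lateral libraries. Six3 averaged 16.7, 36.7 and 15.3 FPKM in the same order.

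Fgfr3, the receptor best known for its expression in neuroepithelial progenitors and later in astrocyte precursors, is on chromosome 5, 33721724 to 33737068, plus strand. The stretch upstream of its annotated start is shown because Fgfr3 had the largest zone difference of the 10 genes. It holds an E-box (CAGCTG, the letters read by many basic helix-loop-helix factors), in capitals, from 97 to 92 bases upstream of the first of 2 RefSeq starts. The stretch covers chr5:33721474-33721673 of GRCm38.p6 on the plus strand and was taken from RefSeq.
Fgfr3: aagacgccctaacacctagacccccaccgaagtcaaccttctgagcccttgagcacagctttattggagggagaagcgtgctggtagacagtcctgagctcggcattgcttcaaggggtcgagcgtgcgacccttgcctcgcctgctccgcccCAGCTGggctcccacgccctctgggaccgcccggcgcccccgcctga

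Fgfr3 was 199.99, 65.0 and 173 FPKM in ventricular libraries 1 to 3, 74.75, 63.7 and 74.0 FPKM in the medial libraries, and 2.44, 2.43 and 0.920 FPKM in the lateral libraries. All 6 ventricular and medial libraries were far above the 3 lateral ones, and ventricular library 2 lay within the medial range. The zone means were 146 ± 71.5, 70.8 ± 6.20 and 1.93 ± 0.875 FPKM (SD, n = 3), a 75.7-fold difference of means between the ventricular and lateral zones and a 36.7-fold difference between the medial and lateral zones. On the log2 scale the differences were 5.55 ± 0.40 (SE; limma adjusted p = 0.000217) and 4.66 ± 0.40 (adjusted p = 0.000758). Both calls held in all 20 alternative settings, with adjusted p from 9.21e-07 to 0.00423 and from 4.45e-06 to 0.00878. Among the 14004 tested genes, only 2 had a larger log2 excess over the lateral zone in each of these comparisons. Genes higher in the lateral zone do not count by size in that ranking. By limma p-value, in either direction, Fgfr3 ranked 7 and 9. The mean level of Fgfr3 was above that of 97.2% of the tested genes in the ventricular zone and of 17.4% in the lateral mantle zone.

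Fgfr3 differed between the ventricular and medial zones by 0.88 ± 0.40 (95% interval from -0.01 to 1.78), which did not pass (limma adjusted p = 0.421). Without ventricular library 2 the difference was 1.39 and passed (adjusted p = 0.0303), and with weights for library quality it was 1.34 (adjusted p = 0.0118). Of the progenitor markers, 10 of 11 were also higher in the ventricular zone than laterally and 10 of 11 in the medial than in the lateral zone. Of all tested genes, 10.7% and 3.58% were called higher in these comparisons, which holds beside the mitosis markers too. The 8 mitosis markers were all higher in both comparisons, and their sum was 206 to 734, 143 to 317 and 8.17 to 19.6 FPKM in the ventricular, medial and lateral libraries. Of 12 neuron markers 10 were lower in the ventricular zone than laterally, beside 8.93% of all tested genes. Between the medial and lateral zones limma called 0 of the 12, beside 0.543% of all tested genes as lower, with a median log2 difference of -0.55. All 3 medial libraries lay below all 3 lateral ones for 7 of the 12, beside 2066 of all 14004 tested genes. Per 1000 FPKM of summed progenitor markers, Fgfr3 was 54.7 to 94.6 FPKM in ventricular, 55.0 to 59.2 in medial and 4.32 to 13.9 in lateral libraries. It thus dropped more than the sum, which is mostly Vim, Msi1 and Fabp7, although Pax6 and Nes exceeded Fabp7 laterally. Fgf15 also dropped more. It was 3.75 to 6.40 in ventricular, 3.32, 7.03 and 10.15 in medial and 0 to 1.21 in lateral libraries, the last on at most about 3 fragments each. For Fgfr1, Spry2 and Dusp6 the ratio was higher laterally, which holds for any gene that drops less than the sum. Fgfr1 was 18.9 to 25.85 in ventricular and 81.5 to 118 in lateral libraries. In the same order, Spry2 was 1.57 to 4.04 and 6.17 to 11.4, and Dusp6 was 1.14 to 6.46 and 19.1 to 44.4. These ratios therefore show no lateral rise of the genes themselves. In FPKM, Fgfr1 and Spry2 were lower in every lateral than in every ventricular library, and Dusp6 overlapped between these zones. Single markers, chosen after their values were seen, varied widely in the fold difference of means between the ventricular and lateral zones. It was lowest for Pax6, at 0.809-fold (23.3 against 28.8 FPKM, limma adjusted p = 0.953), and 3.32-fold for Msi1. Sox9 with 70.02-fold and Hes5 with 77.6-fold were about the size of the Fgfr3 difference. Red blood cell markers summed to 1979 to 2179 FPKM in ventricular, 1410 to 2582 in medial and 322 to 616 in lateral libraries. Of 5 tested, 3 were higher in each of the first zones than in the lateral one, beside the same 10.7% and 3.58%. Endothelial markers summed to 5.99 to 40.0, 21.1 to 51.1 and 12.4 to 38.8 FPKM, and limma called 0 of 7 in each comparison, with at most 1 at an unadjusted p below 0.05. The part of progenitor, neuron or blood cell content in the zone differences of the FGF genes was not tested.

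**Figure D2:**
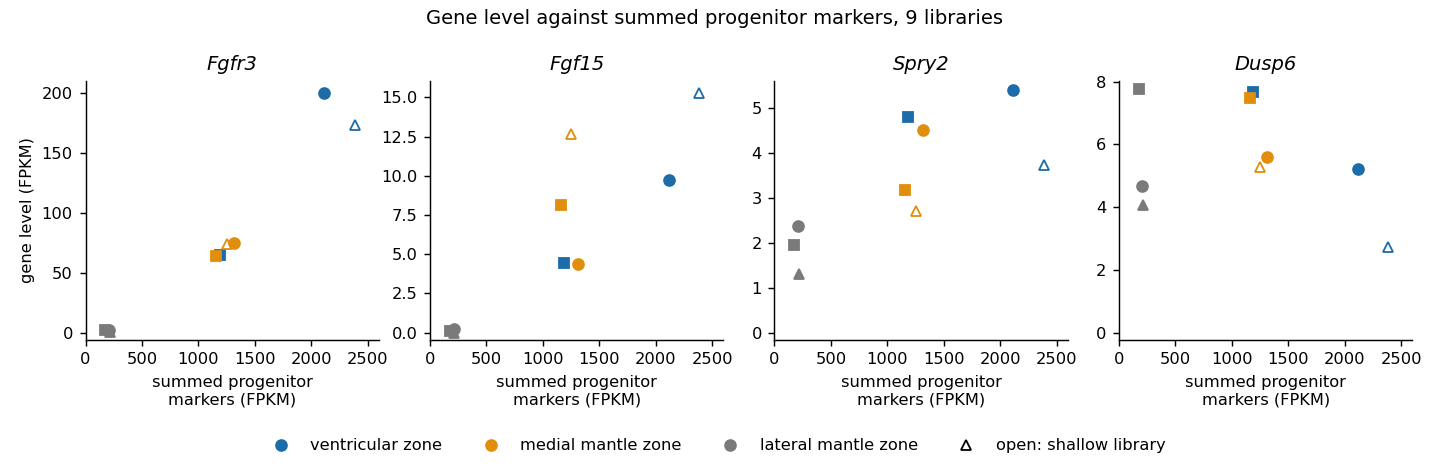
Level of Fgfr3, Fgf15, Spry2 and Dusp6 (FPKM) against the summed FPKM of 11 progenitor markers, on linear axes, 1 point per library, coloured by zone, with open symbols for the 2 shallow libraries. The lateral libraries stand at a sum of 175 to 213 FPKM with low Fgfr3 and Fgf15. Dusp6 reaches 7.76 FPKM in a lateral and 7.67 FPKM in a ventricular library. Its lowest value (2.73 FPKM), in shallow ventricular library 3, rests on about 2 fragments.

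Fgfr1, the most widely expressed receptor of the family in the embryonic brain, is on chromosome 8, 25518759 to 25575718, plus strand. It was 40.3, 30.7 and 45.2 FPKM in ventricular, 38.1, 37.8 and 29.8 FPKM in medial and 17.0, 17.2 and 25.2 FPKM in lateral libraries. No lateral library reached a ventricular or medial one, and the ventricular and medial libraries overlapped. The log2 difference between the ventricular and lateral zones was 0.94 ± 0.22 (SE; limma adjusted p = 0.0182), and the call was lost without ventricular library 1 (adjusted p = 0.0609), lateral library 1 (0.0771) or lateral library 2 (0.0745). Between the medial and lateral zones it was 0.82 ± 0.22 and did not pass (adjusted p = 0.0709). That difference passed without ventricular library 2 (adjusted p = 0.0479), without ventricular library 3 (0.0312), without both shallow libraries (0.0253), with only these zones in the fit (0.0308) and with weights for library quality (0.00175). The ventricular and medial zones differed by 0.12 ± 0.22, with a 95% interval from -0.36 to 0.61.

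Fgfr2, which in its mesenchymal and epithelial splice forms binds different ligands, is on chromosome 7, 130162451 to 130266808, minus strand. The RefSeq stretch upstream of its start is shown for contrast with that of Fgfr3. It covers chr7:130266809-130267058 of GRCm38.p6 on the minus strand, holds none of the letters searched, and has 2 CG dinucleotides in 250 bases, against 19 in the full window of Fgfr3 shown in part above and a median of 6 over all windows.
Fgfr2: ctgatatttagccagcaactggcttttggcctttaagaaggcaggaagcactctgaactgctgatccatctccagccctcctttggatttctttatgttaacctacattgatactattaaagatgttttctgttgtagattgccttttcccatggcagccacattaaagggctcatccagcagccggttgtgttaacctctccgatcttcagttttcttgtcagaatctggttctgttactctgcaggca

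Fgfr2 stood at 24.3, 16.7 and 138 FPKM in the ventricular libraries, 12.1, 13.2 and 25.9 FPKM in the medial libraries, and 15.0, 4.66 and 12.1 FPKM in the lateral libraries. Ventricular library 3, the shallowest, was the highest of all 9, on about 159 fragments. Every ventricular library was above every lateral one. The log2 difference between these zones was 1.90 ± 0.71 (SE) and did not pass (limma adjusted p = 0.0871), while it passed without ventricular library 2, at 2.48 (adjusted p = 0.0305), and with weights for library quality, at 1.14 (adjusted p = 0.0202). Without ventricular library 3 it was 0.9995, and the ventricular to medial difference given next fell to 0.31. The other differences were 1.21 ± 0.71 between the ventricular and medial zones and 0.69 ± 0.71 between the medial and lateral zones, and neither passed (adjusted p = 0.488 and 0.628).

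Taken per length, the 3 receptors together amounted to 244 ± 123 FPKM in ventricular, 123 ± 7.71 in medial and 32.3 ± 7.19 in lateral tissue (SD, n = 3). The order of the receptors differed between zones. Fgfr3 made up 75.6%, 57.8% and 48.65% of the sum in the ventricular libraries, 59.8%, 55.5% and 57.1% in the medial libraries, and 7.08%, 9.999% and 2.41% in the lateral libraries. It was the most abundant receptor in all 6 ventricular and medial libraries, and Fgfr1 was the most abundant in all 3 lateral ones, at 49.3%, 70.8% and 65.9%. Fgfr2 made up 9.18% to 38.6% in ventricular, 9.69% to 19.96% in medial and 19.2% to 43.6% in lateral libraries, with the ventricular maximum in library 3. Within a library, Fgfr3 was 1.69 to 4.97 times Fgfr1 in the ventricular and medial zones and 0.0366 to 0.144 times Fgfr1 in the lateral zone. These shares are descriptions of the same FPKM values and were not tested separately.

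**Figure D3:**
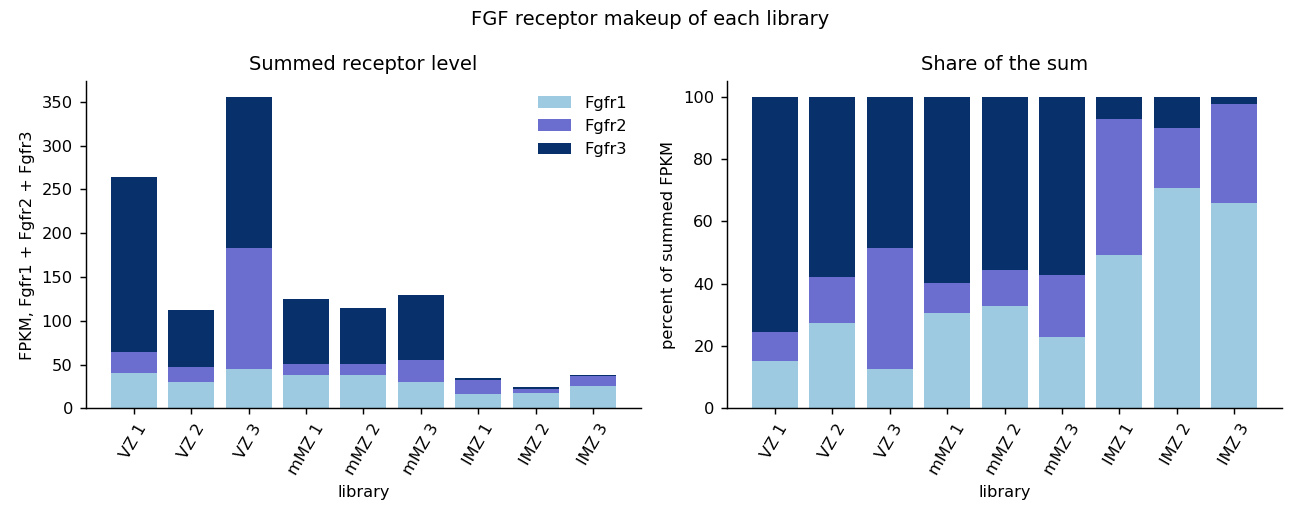
FPKM of Fgfr1, Fgfr2 and Fgfr3 stacked per library (left) and as a percent of their sum (right), with libraries ordered by zone. Fgfr3 takes 48.65% to 75.6% of the ventricular and 55.5% to 59.8% of the medial libraries, but 2.41% to 9.999% of the lateral ones.

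Among the genes that report pathway activity, Spry2 passed in 1 comparison and Spry1 in none, and the difference between them was not tested. Spry2 encodes an inhibitor of Ras activation downstream of receptor tyrosine kinases and is on chromosome 14, 105891947 to 105896819, minus strand. It was 5.39, 4.80 and 3.74 FPKM in ventricular, 4.51, 3.17 and 2.72 FPKM in medial and 2.38, 1.95 and 1.31 FPKM in lateral libraries. All ventricular and medial libraries were above all lateral ones, and the ventricular and medial libraries overlapped. The log2 difference between the ventricular and lateral zones was 0.98 ± 0.29 (SE; limma adjusted p = 0.0435), a 2.47-fold difference of means, and was the least stable call among the 10 genes.

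It held in 8 of 19 alternative settings and could not be fitted in the setting that required 5 FPKM. Leaving out any one of 7 libraries ended it, with adjusted p of 0.119 without ventricular library 1, 0.0657 without ventricular library 2, 0.0615 and 0.0726 without medial libraries 1 and 2, and 0.0902, 0.116 and 0.152 without lateral libraries 1, 2 and 3. It was also lost with a pseudocount of 0.1, with no filter, with trimmed mean scaling and with only the 2 zones in the fit (adjusted p from 0.0554 to 0.0905). Ventricular library 3 holds about 2 Spry2 fragments and medial library 3 about 3. The remaining differences were 0.63 ± 0.29 between the medial and lateral zones (limma adjusted p = 0.258, and 0.0243 with weights for library quality) and 0.35 ± 0.29 between the ventricular and medial zones (adjusted p = 0.627).

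Spry1, the paralogue of Spry2, is on chromosome 3, 37639947 to 37644599, plus strand. It was 5.24, 3.82 and 2.75 FPKM in ventricular, 6.05, 5.94 and 5.32 FPKM in medial and 4.51, 4.17 and 2.50 FPKM in lateral libraries. The medial libraries were the highest 3 of the 9, an order against the ventricular libraries that 9.30% of all tested genes share, and the ventricular and lateral libraries overlapped. The medial zone differed from the ventricular zone by 0.48 ± 0.30 (ventricular minus medial -0.48; limma adjusted p = 0.507) and from the lateral zone by 0.54 ± 0.30 (adjusted p = 0.335, and 0.0496 with weights for library quality), so neither passed in the unweighted fit. Ventricular and lateral libraries differed by 0.06 ± 0.30, with a 95% interval from -0.61 to 0.72. The ratio of Spry2 to Spry1 within a library was 1.03 to 1.36 in ventricular, 0.510 to 0.745 in medial and 0.467 to 0.527 in lateral libraries. Ventricular library 3 holds about 2 fragments of Spry1, so its ratio is imprecise.

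The upstream stretches of both Sprouty genes are shown because one of the paralogues passed and the other did not. They are RefSeq windows of GRCm38.p6, chr3:37639697-37639946 on the plus strand for Spry1 and chr14:105896820-105897069 on the minus strand for Spry2. Each holds 62.4% G or C and 23 CG dinucleotides, above the 52.4% and 6 that are the medians of all 32851 windows.
Spry1: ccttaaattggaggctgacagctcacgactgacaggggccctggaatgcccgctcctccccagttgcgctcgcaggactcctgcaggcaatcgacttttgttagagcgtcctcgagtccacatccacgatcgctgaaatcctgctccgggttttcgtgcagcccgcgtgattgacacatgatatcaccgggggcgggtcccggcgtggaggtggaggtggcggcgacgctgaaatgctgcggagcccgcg
Spry2: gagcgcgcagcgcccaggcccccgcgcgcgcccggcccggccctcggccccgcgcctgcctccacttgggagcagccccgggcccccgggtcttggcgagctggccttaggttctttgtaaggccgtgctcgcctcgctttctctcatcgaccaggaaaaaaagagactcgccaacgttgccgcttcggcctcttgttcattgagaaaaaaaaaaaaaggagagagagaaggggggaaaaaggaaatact

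The 250 bases upstream of the RefSeq start were searched on both strands for 8 letter strings, none of which overlapped another in a member's window. These were an ETS string (CCGGAAG), the AP-1 string (TGACTCA), CRE (TGACGTCA), the E-box, a Gli string (GACCACCCA), a Sox string (ACAATGG), an RBPJ string (GTGGGAA) and a TCF string (CTTTGAT). The 7 genes found there had 9 windows, with 2 each for Fgfr3 and Etv5. The E-box was in 2 of the 9, the outer window of each of these genes and not the inner one, beside 13.0% of all windows, and 0 of the 9 held any other string. The ETS string, in 6.91% of all windows, holds the GGA core that ETS factors such as Etv4 and Etv5 bind. A match describes letters and not a bound site, and a missing match says only that these letters are not in these windows. Fgfr1, Fgf15 and Etv4 were not in the table of windows.

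Dusp6 encodes a phosphatase that removes the activating phosphates of ERK, and is often read as a report of FGF signalling. It is on chromosome 10, 99263231 to 99267489, plus strand. It was 5.22, 7.67 and 2.73 FPKM in ventricular, 5.59, 7.48 and 5.29 FPKM in medial and 4.67, 7.76 and 4.07 FPKM in lateral libraries. The 3 zones overlapped throughout. The log2 differences were -0.11 ± 0.36 between the ventricular and lateral zones (95% interval from -0.92 to 0.70), -0.27 ± 0.36 between the ventricular and medial zones and 0.16 ± 0.36 between the medial and lateral zones (limma adjusted p = 0.851, 0.776 and 0.846). None passed in any of the 20 alternative settings. The 75.7-fold difference in Fgfr3 stood beside a Dusp6 level for which differences above 0.92 on the log2 scale, in either direction, lay outside the interval. In ventricular library 3 the Dusp6 value rests on about 2 fragments.

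Etv4 and Etv5, transcription factors whose RNA rises with FGF signalling, were low in all zones. Etv4, on chromosome 11, 101769747 to 101785310, minus strand, was 0.368 and 0.487 FPKM in ventricular libraries 1 and 2 and listed at 0 in the third, 0.0622, 1.28 and 4.57 FPKM in the medial libraries, and 0.537, 1.42 and 0.484 FPKM in the lateral libraries. The highest value, in medial library 3, rests on about 6 fragments, and in ventricular library 3 a value of up to 4.80 FPKM would fall under 3 fragments. Etv4 differed by -0.48 ± 0.54 between the ventricular and lateral zones, by -0.91 ± 0.54 between the ventricular and medial zones and by 0.43 ± 0.54 between the medial and lateral zones, and passed in none (limma adjusted p = 0.552, 0.497 and 0.704). Etv5, on chromosome 16, 22381313 to 22439570, minus strand, was not tested. It was 0.716 and 1.11 FPKM and listed at 0 in ventricular, 0.597, 0.493 and 0.964 in medial and 0.805, 1.17 and 0.290 in lateral libraries, which overlapped.

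**Figure D4:**
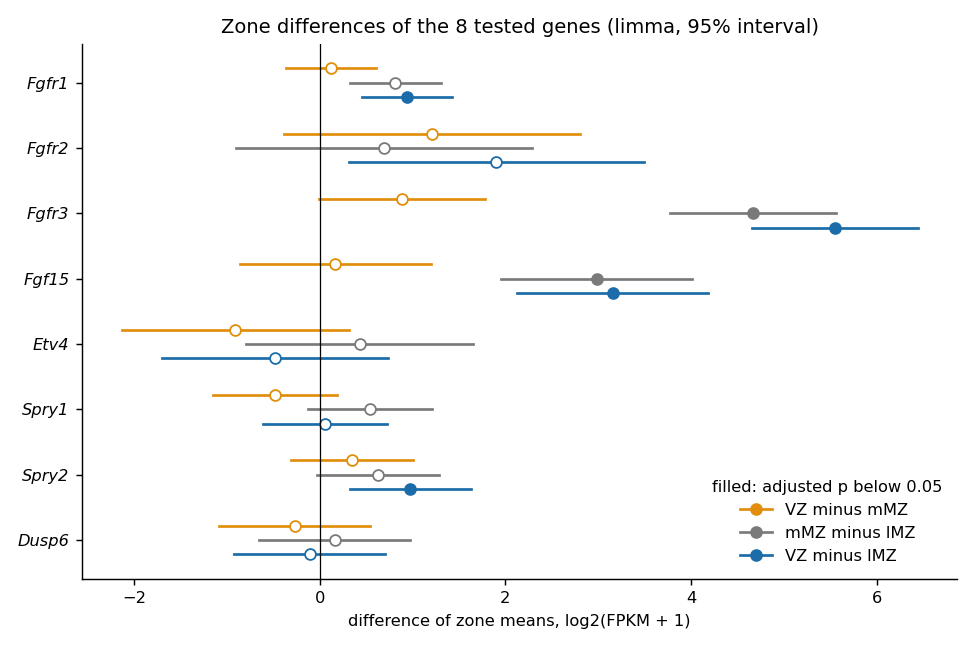
Differences of log2(FPKM + 1) between zones for the 8 tested genes, with 95% intervals from limma (filled symbols: adjusted p below 0.05). Fgfr3 and Fgf15 stand at 5.55 and 3.15 between the ventricular and lateral zones, while the intervals of Dusp6, Spry1 and Etv4 cross 0 in all 3 comparisons.

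The other genes of the pathway were read from 6 lists of 92 symbols, 91 of them in the table and 68 tested. Between the ventricular and lateral zones 13 were higher, 9 lower and 46 did not pass, a share of 32.4% beside the 19.6% of all tested genes. Between the medial and lateral zones 7 were higher and 0 lower, and 61 did not pass. That share of 10.3% stood beside 4.12% of all tested genes, 3.58% as higher and 0.543% as lower. With quantile normalization the split of 7 higher and 0 lower became 6 higher and 3 lower. In the remaining comparison, ventricular against medial, limma called 0 of 68, beside 0% of all tested genes. An unadjusted p below 0.05 was found for 13 of the 68, beside 1661 of all 14004 tested genes. These counts are descriptions of the lists and were not tested as sets.

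Of 20 other FGF genes, 6 were tested, and 3 (Fgf6, Fgf16 and Fgf20) were listed at 0 in all libraries. The most abundant, Fgf13, is one of the FGF homologous factors, which are not secreted and act inside neurons on sodium channels. It was 27.5 ± 21.4 FPKM in ventricular, 29.6 ± 7.80 in medial and 43.8 ± 3.27 in lateral tissue and did not pass (limma adjusted p = 0.186 between the ventricular and lateral zones, and 0.0121 without ventricular library 2). Its relative Fgf14 was lower in the ventricular zone than laterally, 1.81 ± 1.53 against 5.21 ± 0.780 FPKM, by -1.27 ± 0.39 (adjusted p = 0.0461). That call was lost without any one of 7 libraries, the exceptions being ventricular library 2 and medial library 3, with adjusted p from 0.0674 to 0.138, and held in 7 of 20 settings in all. Fgf11 was 6.72 to 7.55 FPKM on average in the 3 zones and did not pass. The secreted ligands Fgf18 and Fgf9, chosen after their values were seen, were low and pointed opposite to Fgf15. Fgf18 was 0.411 ± 0.550 FPKM in ventricular and 2.23 ± 0.676 in lateral tissue (-1.24 ± 0.41, limma adjusted p = 0.0619). Fgf9 was 0.664 ± 0.623 against 1.81 ± 1.13 FPKM (-0.75 ± 0.45, adjusted p = 0.259). Neither passed, and both were listed at 0 in ventricular library 3.

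Of 9 genes of receptors, co-receptors and carriers, 5 were tested. In the comparison of ventricular with lateral zone 2 passed, both as higher, beside 10.7% of all tested genes as higher. Fgfrl1, a receptor that binds FGF but lacks the kinase domain, was 6.77 ± 0.775 FPKM in ventricular, 5.26 ± 0.532 in medial and 0.679 ± 0.527 in lateral tissue. Its log2 differences from the lateral zone were 2.25 ± 0.29 (limma adjusted p = 0.00161) and 1.94 ± 0.29 (adjusted p = 0.00761), and both held in all 20 alternative settings. Fgfbp3, a secreted protein that binds FGF and releases it from the matrix, was 25.6 ± 9.88 FPKM in ventricular, 6.85 ± 3.24 in medial and 2.84 ± 0.589 in lateral tissue, and differed by 2.72 ± 0.41 between the first and the last (adjusted p = 0.00311, held in all 20 settings). Flrt2 and Flrt3, the most abundant of this list that passed in no comparison, averaged 8.51 and 8.81 FPKM in ventricular tissue. In lateral tissue they averaged 5.42 and 4.11 FPKM (limma adjusted p = 0.445 and 0.305). All 5 tested genes of this list were higher in every ventricular than in every medial library, beside 5.36% of all tested genes. Limma called none of them in that comparison, and 4 had an unadjusted p below 0.05.

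Of 21 tested heparan sulfate genes, 4 were higher and 4 lower in the ventricular zone than laterally and 13 did not pass, a share of 38.1% called beside 19.6% of all tested genes. The median difference was 0.09. The most abundant that passed in no comparison were Gpc2 and Gpc1. Gpc2 averaged 275, 306 and 370 FPKM in the ventricular, medial and lateral zones (limma adjusted p = 0.252 for ventricular against lateral). Gpc1 averaged 81.7, 68.2 and 73.4 FPKM (adjusted p = 0.481). Sulf1, an extracellular enzyme that removes 6-O-sulfate groups from heparan sulfate, was 19.9 ± 3.84, 12.3 ± 1.96 and 1.79 ± 0.731 FPKM in the ventricular, medial and lateral zones. It differed from the lateral zone by 2.92 ± 0.27 (limma adjusted p = 0.000446) and 2.27 ± 0.27 (adjusted p = 0.00284), in all 20 settings. The 4 lower genes were Sdc3 and the 6-O-sulfotransferases Hs6st1, Hs6st2 and Hs6st3, which add the groups that Sulf1 removes. Hs6st1 and Hs6st3, like Sdc1 and Gpc6 among the higher genes, fall outside the naming rule and were chosen after their values were seen.

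Hs6st2 was 1.49 ± 0.681 FPKM in ventricular and 9.07 ± 3.71 FPKM in lateral tissue (log2 difference -1.98 ± 0.54, limma adjusted p = 0.0321). Hs6st1 was 19.4 ± 4.75 against 33.2 ± 2.16 FPKM (-0.77 ± 0.21, adjusted p = 0.0339). Hs6st3, listed at 0 in both shallow libraries, was 0.390 and 0.682 FPKM in the other ventricular libraries and 4.88, 2.68 and 3.21 FPKM in the lateral ones (adjusted p = 0.0186). These 3 calls held in 14 of 20, 10 of 20 and 14 of 19 settings and were lost without single libraries, with adjusted p up to 0.119, 0.11 and 0.0804. For Hs6st2 these were ventricular libraries 1 and 3 and each lateral library, for Hs6st3 ventricular library 1 and each lateral library, and for Hs6st1 every library but ventricular library 2 and medial library 3. Syndecan 3 (Sdc3), a heparan sulfate proteoglycan of neurons, was 41.5 ± 27.2, 81.7 ± 13.1 and 140 ± 9.07 FPKM across the zones, with a difference of -1.92 ± 0.36 between the ventricular and lateral zones (adjusted p = 0.0078, held in all 20 settings). Glypican 4 (Gpc4), a membrane-anchored proteoglycan, was 5.20 ± 3.46, 10.6 ± 2.51 and 0.506 ± 0.139 FPKM across the zones, and the medial excess over the lateral zone was 2.92 ± 0.46 (adjusted p = 0.0088, held in all 20 settings). The ventricular excess of Gpc4 over the lateral zone was 1.84 ± 0.46 (adjusted p = 0.0244), held in 14 of 20 settings and lost without ventricular library 1 or any one lateral library (adjusted p up to 0.0808), and its ventricular and medial libraries overlapped (adjusted p = 0.412).

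**Figure D5:**
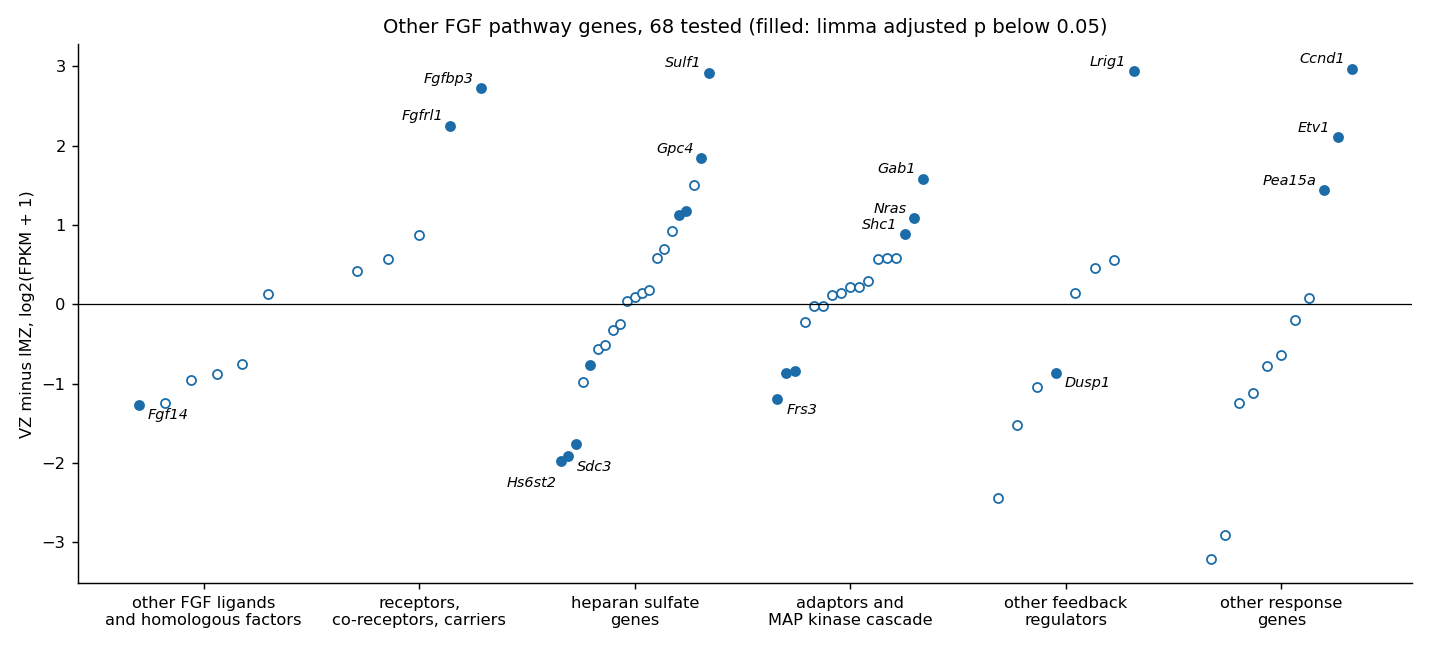
Differences of log2(FPKM + 1) between the ventricular (VZ) and lateral mantle zone (lMZ) for the 68 tested genes of the 6 other pathway lists, 1 point per gene (filled: limma adjusted p below 0.05; names for the genes the naming rule took and that passed). Both signs occur in the heparan sulfate and adaptor lists, with Sulf1 at 2.92 and Sdc3 at -1.92.

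Of 17 tested adaptor and cascade genes 3 were higher and 3 lower in the ventricular zone than laterally. This share of 35.3% called stood beside 19.6% of all tested genes, 10.7% as higher and 8.93% as lower. Gab1, a docking protein that carries the receptor signal to the PI3 kinase and Ras branches, was 9.80 ± 1.45, 6.88 ± 1.59 and 2.60 ± 0.360 FPKM across the zones and differed by 1.58 ± 0.26 between the ventricular and lateral zones (limma adjusted p = 0.00452, held in all 20 settings). The other 5 (Nras and Shc1 higher, Frs3, Grb2 and Mapk3 lower) were lost without single libraries. Grb2 and Mapk3 were chosen after their values were seen. Map2k2 and Plcg1, the most abundant that passed in no comparison, differed between the same zones by -0.02 and 0.21 (limma adjusted p = 0.938 and 0.466). Nras and Mapk3 were lost without ventricular library 1 or any one lateral library, with adjusted p up to 0.0675 and 0.0901. Frs3 was lost without ventricular library 1 or 3, medial library 1 or any one lateral library (up to 0.112), Shc1 without library 1 or 2 of any zone (up to 0.158), and Grb2 without any one library but ventricular library 2 (up to 0.139).

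Of 8 tested further feedback regulators 1 was higher and 1 lower in the ventricular zone than laterally, a share of 25%, near the 19.6% of all tested genes. Lrig1, which lowers receptor tyrosine kinase levels, was 21.8 ± 17.2, 9.09 ± 1.02 and 1.52 ± 0.621 FPKM across the zones and differed by 2.94 ± 0.48 (limma adjusted p = 0.00444, held in all 20 settings). Dusp1, a phosphatase of MAP kinases induced by stress and growth factors, was 22.8 ± 6.56 against 41.3 ± 3.44 FPKM, a difference of -0.87 ± 0.22 (adjusted p = 0.0239) that was lost without ventricular library 1 or any one lateral library (adjusted p from 0.0588 to 0.0857). Dusp4, a nuclear phosphatase of ERK, was 24.8 ± 27.1, 47.1 ± 4.42 and 74.1 ± 11.2 FPKM across the zones, with a difference of -2.44 ± 0.87 between the ventricular and lateral zones that did not pass (adjusted p = 0.078). It passed without ventricular library 2, at -3.45 (adjusted p = 0.00695), and with weights for library quality (0.000757), and was -1.18 without ventricular library 3. Spred3, a relative of the Sproutys, was 14.9 ± 7.73 against 29.3 ± 3.42 FPKM and did not pass (adjusted p = 0.0621), but passed in 4 of 20 settings, among them without ventricular library 2 (0.01) and without both shallow libraries (0.0497).

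Of 11 tested response genes 3 were higher in the ventricular zone than laterally, 0 were lower and 8 did not pass, beside 10.7% of all tested genes as higher and 8.93% as lower. Of the 11 differences 7 were negative, with a median of -0.64. Cyclin D1 (Ccnd1), which moves cells into the cell cycle and is also driven by other pathways, was 110 ± 64.6, 61.5 ± 25.3 and 12.0 ± 2.72 FPKM and differed by 2.97 ± 0.39 (limma adjusted p = 0.00168, held in all 20 settings). Pea15a, which binds ERK in the cytoplasm, was 155 ± 35.8, 144 ± 23.4 and 56.1 ± 10.5 FPKM and differed by 1.44 ± 0.22 (adjusted p = 0.0035, held in all 20 settings). Etv1, the third member of the family of Etv4 and Etv5, was 10.5 ± 10.4, 5.62 ± 3.37 and 1.11 ± 0.549 FPKM and differed by 2.104 ± 0.59 (adjusted p = 0.0357), and by 1.40 without ventricular library 3, a call lost without ventricular library 3, medial library 1 or 2, or any one lateral library (adjusted p from 0.0515 to 0.125). The highest Etv1 values, 22.5 and 9.50 FPKM, were those of the 2 shallow libraries. Egr1 and Fos, early genes that respond within minutes to many stimuli, were listed at 0 in both shallow libraries and pointed the other way. Egr1 was 8.77, 5.15 and 0 FPKM in the ventricular and 27.3, 54.2 and 29.4 FPKM in the lateral libraries, a difference of -3.21 ± 1.10 that did not pass (limma adjusted p = 0.0683). It passed in 7 of 20 settings, among them without both shallow libraries (adjusted p = 0.0032) and without medial library 3 (0.0227), and the medial to lateral difference passed without both shallow libraries (0.044). Fos differed by -2.91 ± 1.38 (adjusted p = 0.163) and passed in 1 of 20 settings.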

How the data were processed

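Paired 100 bp reads of mRNA libraries were made from the dissected zones, per the labels' protocols. The authors deposited FPKM values, 1 per gene and library, in a single table. Bowtie2 2.1.0 and the build mm10 are listed in the submitters' processing notes, while the program and annotation behind the FPKM values are not given in the sources used here. Its 38370 rows held 42 exact duplicates and 133 more repeats of a symbol, and the most abundant row of each symbol was kept. Gene spans are RefSeq coordinates on GRCm38, the assembly called mm10.

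Values were analysed as log2(FPKM + 1). One linear model with a mean for each zone was fitted with limma 3.58.1 (R 4.3.3, intensity trend), and two-sided p-values were adjusted by the Benjamini-Hochberg method over the 14004 tested genes. FPKM gives no counts, so no count test was used, and fragments were implied from the steps between low values. Alternatives changed the pseudocount (0.1 and 5), the filter, the scaling (quantiles or a trimmed mean of log ratios), the trend, library weights, which zones entered, a block for the replicate number and single libraries. By rule, pathway genes named beside the 10 were, per list, at most the 4 largest changes among those that passed. The rule also took the 2 most abundant that passed in no comparison. Pathway genes named outside it are marked as chosen after their values were seen, or were listed at 0 in all libraries. Likeness of profiles is a root mean square difference over the 9 libraries. The 10 genes and the lists were chosen with earlier results of these data known. The median log2 difference of all tested genes between the medial and lateral zones was 0.10, and -0.02 with trimmed mean scaling. A value of exactly 0 is described as listed at 0, since 27 genes in ventricular library 3 and 15 in medial library 3 were at 0 while the other libraries held them at 10 FPKM or more.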

Additional observations from a re-analysis of the deposited data

How the results depend on the processing

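Depth limits the low genes most: in each shallow library Etv4, Etv5 and Fgf10 rest on at most about 6 fragments. No difference past the threshold changed direction in the alternatives run. With array weights, limma called 2761 genes between the ventricular and medial zones in place of 0, 6800 between the ventricular and lateral zones in place of 2750, and 3700 between the medial and lateral zones in place of 577. The same weights called 1 and 5 of the 10 genes in the first and last of these, and 14, 41 and 22 of the other pathway genes in the 3 comparisons. Between the ventricular and medial zones a pseudocount of 5 called 5 genes, a filter of 5 FPKM called 4 and quantile normalization called 9. With only the 2 zones compared in the fit, 1684 genes and 13 pathway genes passed between the ventricular and lateral zones, and 2027 and 14 between the medial and lateral zones. Without both shallow libraries, 1666 genes and 13 pathway genes passed between the medial and lateral zones. With no filter, 13 pathway genes passed between the ventricular and lateral zones. The cause of these changes was not tested. Leaving out 1 library at a time gave 0 to 571, 959 to 3958 and 207 to 1760 genes, 0 to 1, 2 to 4 and 2 to 3 of the 10 genes, and 0 to 4, 8 to 29 and 3 to 14 pathway genes, in the order ventricular against medial, ventricular against lateral and medial against lateral. Of the 10 genes 2 passed between the ventricular and lateral zones without ventricular library 1, lateral library 1 or lateral library 2. Pathway genes fell to 8 there without lateral library 1 or 2 and to 10 without lateral library 3 or ventricular library 1, and between the medial and lateral zones to 3 without lateral library 2 or medial library 2 and to 4 without lateral library 1, and rose to 14 without ventricular library 3. The replicate numbers were not taken to pair the libraries, since correlations of the deviations of same-numbered libraries ran from -0.0984 to 0.249, not all pairs were over 0.1, and not every library correlated best with its own number. A replicate block called 5, 2 and 0 of the 10 genes (ventricular against lateral, medial against lateral, ventricular against medial), with Fgfr2 added in the first (adjusted p = 0.0315), where Egr1, Fos and Spred3 also passed and Fgf14 did not, and 2901, 703 and 0 of all genes. Spry2 and Etv4 could not be fitted under the filter of 5 FPKM. A pseudocount of 5 shrank the differences of low genes that passed, such as Spry2 (0.49 in place of 0.98) and Fgfrl1 (1.05 in place of 2.25), by over 1.5 times.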

Other observations

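The genes whose profiles over the 9 libraries came closest to each of the tested genes are given as a description, since all profiles share the same libraries and depth. For Fgfr3 they were Mfng (root mean square difference 0.446 on the log2 scale), Phgdh (0.507) and Lfng (0.594), among 8931 genes compared. Mfng and Lfng encode Fringe glycosyltransferases that modify Notch receptors, and Phgdh encodes the first enzyme of serine synthesis. Mean levels of Mfng were 114 FPKM in ventricular, 59.9 in medial and 2.07 in lateral tissue, beside 146, 70.8 and 1.93 for Fgfr3. For Fgf15 the closest were Rrm2 (0.214), which makes deoxyribonucleotides, Cenpf (0.269), a kinetochore protein, and Ccna2 (0.27), cyclin A2. Per 1000 FPKM of summed mitosis markers, Fgf15 was 20.8 to 31.0 FPKM in ventricular, 30.6 to 42.7 in medial and 15.9, 9.96 and 0 FPKM in lateral libraries.

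For Fgfr1 the closest profile was that of Hnrnpa2b1 (0.11), an RNA-binding protein, at 568, 528 and 304 FPKM across the zones. For Spry2 it was Specc1 (0.156), for Spry1 Zfp369 (0.181), for Dusp6 Ints10 (0.164), for Fgfr2 Manea (0.359) and for Etv4 Pdcd2l (0.386). Among the 28 pairs of the 8 tested genes, the smallest differences of profile were those of Spry1 with Dusp6 (0.343) and of Fgfr1 with Spry2 (0.364). Genes that vary little have small differences from each other whatever their pattern. The root mean square about a gene's own mean was 0.345 for Spry1, 0.383 for Dusp6, 0.458 for Spry2 and 0.47 for Fgfr1. It was 0.715 for Etv4, 1.53 for Fgf15 and 2.48 for Fgfr3. A small difference between these 2 pairs is therefore no sign of a shared pattern.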
